A study of Arabidopsis thaliana with 20 samples.

Results

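The 23 genes described here are the members of the cytochrome P450 superfamily of Arabidopsis thaliana that the array table names one by one. A gene was taken if a probe set was paired with that gene alone and its RefSeq symbol or synonym was a P450 name, CYP followed by a family number and a subfamily letter. RefSeq lists 252 such loci, of which 240 are protein coding and 12 are transcribed pseudogenes. The 23 members are a subset of the 13286 genes that have a probe set of their own in the table used. The other 229 P450 loci are not analysed here, so that nothing below speaks for the superfamily as a whole. By family number, 19 members belong to family 71, each of them in subfamily CYP71B, out of 37 CYP71B loci in RefSeq. The remaining 4 stand alone in their families and are CYP51G2, CYP78A9, CYP79A2 and CYP84A4. Each member had 1 probe set, so no choice between probe sets was needed.

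Transcripts were measured on 20 Affymetrix arrays of whole seedlings, 10 days old, grown at 23 °C with 16 h of light. The first line was homozygous for a single insertion of 35S:VND7-VP16-GR. Its product joins VND7, a master switch of vessel cell formation from the NAC family, with VP16, a strong activator of transcription, and with the steroid-binding part (GR) of a glucocorticoid receptor. The second line, called the empty vector, was likewise homozygous for a single insertion and carried 35S:VP16-GR without VND7. Both constructs are driven by the 35S promoter, which is active in most plant tissues and not only in xylem, and the labels describe 1 insertion per construct. All seedlings received cycloheximide (CHX), which blocks protein synthesis, so every group carries its effects. In 2 groups, 1 of each line, CHX was given for 2 h and then for 4 h more together with dexamethasone (DEX), which lets a receptor fusion enter the nucleus. The other 2 groups had CHX alone for all 6 h. Each of the 4 groups held 5 arrays, with replicate numbers 1 to 5. Doses of both compounds are written as 10 µM in the protocol and as 10 mM elsewhere in the labels, and which is right could not be settled. Whether replicates were grown as separate cultures is not stated, and p-values therefore reflect a spread between arrays that may be technical only. The level of VND7 itself is not analysed here.

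Cytochrome P450 enzymes are haem proteins, mostly anchored in the endoplasmic reticulum, that insert an oxygen atom into a substrate with electrons passed on by a reductase. In plants they act in lignin and flavonoid synthesis, in hormone synthesis and breakdown, in wax and cutin formation and in the synthesis of defence compounds such as glucosinolates and camalexin. CYP71B is a large subfamily that grew by tandem duplication, and most of its members have no settled substrate. Among the members, CYP71B6 acts on indole-3-acetonitrile, an intermediate of indole defence compounds. CYP84A4 takes part in arabidopyrone synthesis, a side branch of phenylpropanoid metabolism, and is a relative of ferulate 5-hydroxylase. CYP79A2 converts phenylalanine to its oxime on the way to benzylglucosinolate. CYP78A9 promotes the growth of fruits and seeds. CYP51G2, a relative of the sterol 14-demethylase, is a transcribed pseudogene in RefSeq, as is CYP71B27. CYP71B30P is listed there as protein coding in spite of the P, for pseudogene, in its name.

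Many of the members are clustered in the genome. On chromosome 3, 11 of the CYP71B members carry locus names from AT3G26150 (CYP71B16) to AT3G26330 (CYP71B37). Smaller groups of 3 share the name stems AT1G13 on chromosome 1 (CYP71B27, CYP71B28 and CYP71B29) and AT3G53 on chromosome 3 (CYP71B5, CYP71B30P and CYP71B31). In all, 11 members have another member as their immediate neighbour in RefSeq. Duplicated genes of this kind can be close in sequence. The probe sequences were not used here, so whether a probe set also binds the transcript of a neighbouring gene was not tested.

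Signals spanned a wide range. The values given are MAS5 signals, in which the trimmed mean of each array is nearly the same (496.06 to 496.62 over the 20 arrays). The median of an array lay between 159.7 and 186, and its 30th percentile between 46.2 and 58.7. Signals of different probe sets are not compared with each other, since probe sets differ in how strongly they bind. CYP71B6, CYP71B22, CYP71B23, CYP71B26 and CYP84A4 were above the array median in all 20 arrays. Their SD within groups was 0.40 to 0.77 on the log2 scale. A further 6 members were below the 30th percentile in all 20 arrays, namely CYP71B16, CYP71B25, CYP71B27, CYP71B30P, CYP71B31 and CYP79A2. These dim members had SDs of 0.63 to 1.68, with a median of 1.29. The other 12 lay between, with SDs from 0.22 for CYP71B5 to 3.36 for CYP71B21. CYP79A2 had a signal under 10 in every array (0.9 to 7.6), and CYP71B31 in 17 of 20. Ratios between signals of a few units are not reliable.

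**Figure D1:**
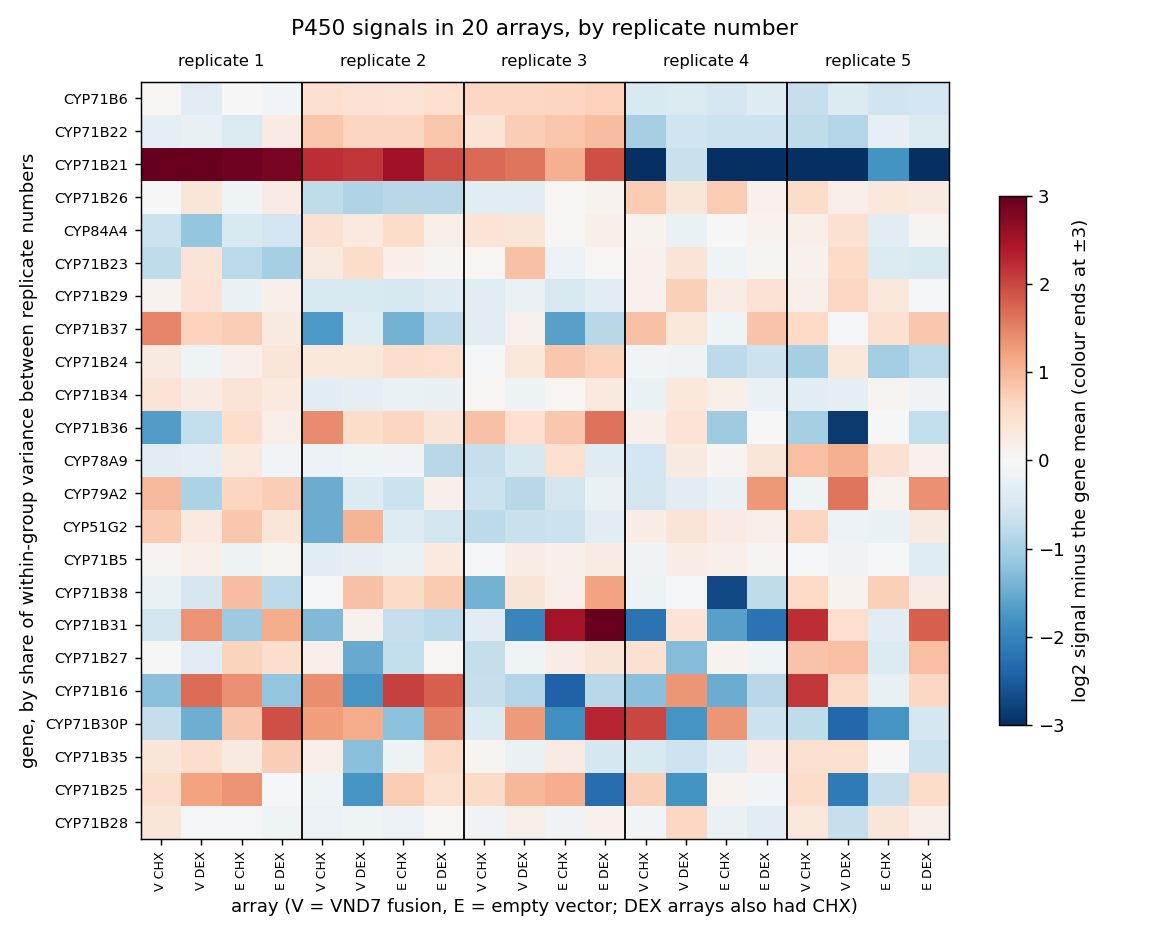
Each row is a P450 gene and each column an array, grouped by replicate number. Colour is the log2 of the MAS5 signal minus the gene's mean over the 20 arrays, with colours ending at 3 in each direction. The genes are ordered by the share of their within-group variance that lies between replicate numbers, from CYP71B6 (97.2%) at the top to CYP71B28 (2.63%) at the bottom. In the upper rows the 4 arrays of a number have much the same colour.

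The first question of the design is which transcripts respond to the fusion protein when no new protein can be made. None of the 23 P450 genes passed in the VND7 line (DEX with CHX against CHX alone) when groups alone were fitted. A gene passed at an adjusted p under 0.05 in limma, adjusted over all 22746 probe sets, of which 0.453% passed in this comparison. At an unadjusted p under 0.05 there was 1 member, CYP71B23 (4.35% of members, against 3.44% of all probe sets). The members' log2 changes ran from -1.16 for CYP71B25 to 1.16 for CYP71B21, with a median of 0.07 against -0.02 over all probe sets. Of the members 13 had changes above 0 and 10 below. In the empty-vector line, which shows what DEX does without VND7, 0 members passed (background 0.281%) and 0 had an unadjusted p under 0.05 (3.66% of all probe sets). There the changes ran from -0.79 for CYP71B25 to 1.45 for CYP71B30P, with a median of 0.06 against -0.01. In that line 18 members had changes above 0 and 5 below. The median size of a change, without its sign, was 0.09 for members and 0.14 for all probe sets. The difference between the responses of both lines was passed by 0 members as well (background 0.391%), again with 0 at an unadjusted p under 0.05 (3.64% of all probe sets). On the median-scaled values, the 5 arrays with DEX and the 5 without did not overlap for 0 members in the VND7 line (background 1.09%) and for 0 in the empty-vector line (background 1.05%).

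The largest fitted changes came from dim signals. CYP71B25 was 12.4 to 22.1 under CHX alone in the VND7 line and 3.1 to 31.1 with DEX, so that the arrays with DEX lay on both sides of those without. CYP71B30P in the empty-vector line was 1.7 to 15.3 under CHX alone and 3.9 to 29.8 with DEX, with overlap. The change of CYP71B21 in the VND7 line rested on arrays near the floor. It was 341 against 360.5 with DEX in replicate 1, 159 against 152 in replicate 2 and 111 against 105 in replicate 3, and then 1.0 against 21.7 and 1.2 against 3.5 in replicates 4 and 5. Among brighter genes, CYP71B29 was 163, 112, 121, 166 and 171 under CHX alone in that line and 204, 110.1, 133, 249.8 and 232 with DEX. It was higher with DEX in 4 of 5 pairs, and its log2 change of 0.27 did not pass (limma, adjusted p = 0.670 with the block).

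The intervals show how much of a response these arrays could have missed. In the VND7 line the 95% interval (unadjusted) lay within a 2-fold change in either direction for 9 of the 23 members. These were CYP71B5, CYP71B6, CYP71B22, CYP71B26, CYP71B28, CYP71B29, CYP71B34, CYP78A9 and CYP84A4. For CYP71B6 the signal was 1674 ± 633 (SD, n = 5) under CHX alone and 1631 ± 599 (SD, n = 5) with DEX. For CYP84A4 it was 1863 ± 486 (SD, n = 5) under CHX alone and 1741 ± 640 (SD, n = 5) with DEX. In both genes the spread within each group was far larger than the gap between the means. For the remaining members, the dim ones above all, a 2-fold response lay inside the interval.

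Same-numbered arrays of different groups deviated together across probe sets, and the labels' replicate numbers were therefore also fitted as a block. With the block 1 member passed in the VND7 line, CYP71B23, which rose (background 1.04%). No member passed in the empty-vector line (background 0.712%) or in the difference of responses (background 1.05%). At an unadjusted p under 0.05 there were 0 members in the empty-vector line (8.36% of all probe sets) and 1 in the difference of responses (7.55% of all probe sets), again CYP71B23. With the block the interval of the VND7 line's response lay within 2-fold for 13 members.

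**Figure D2:**
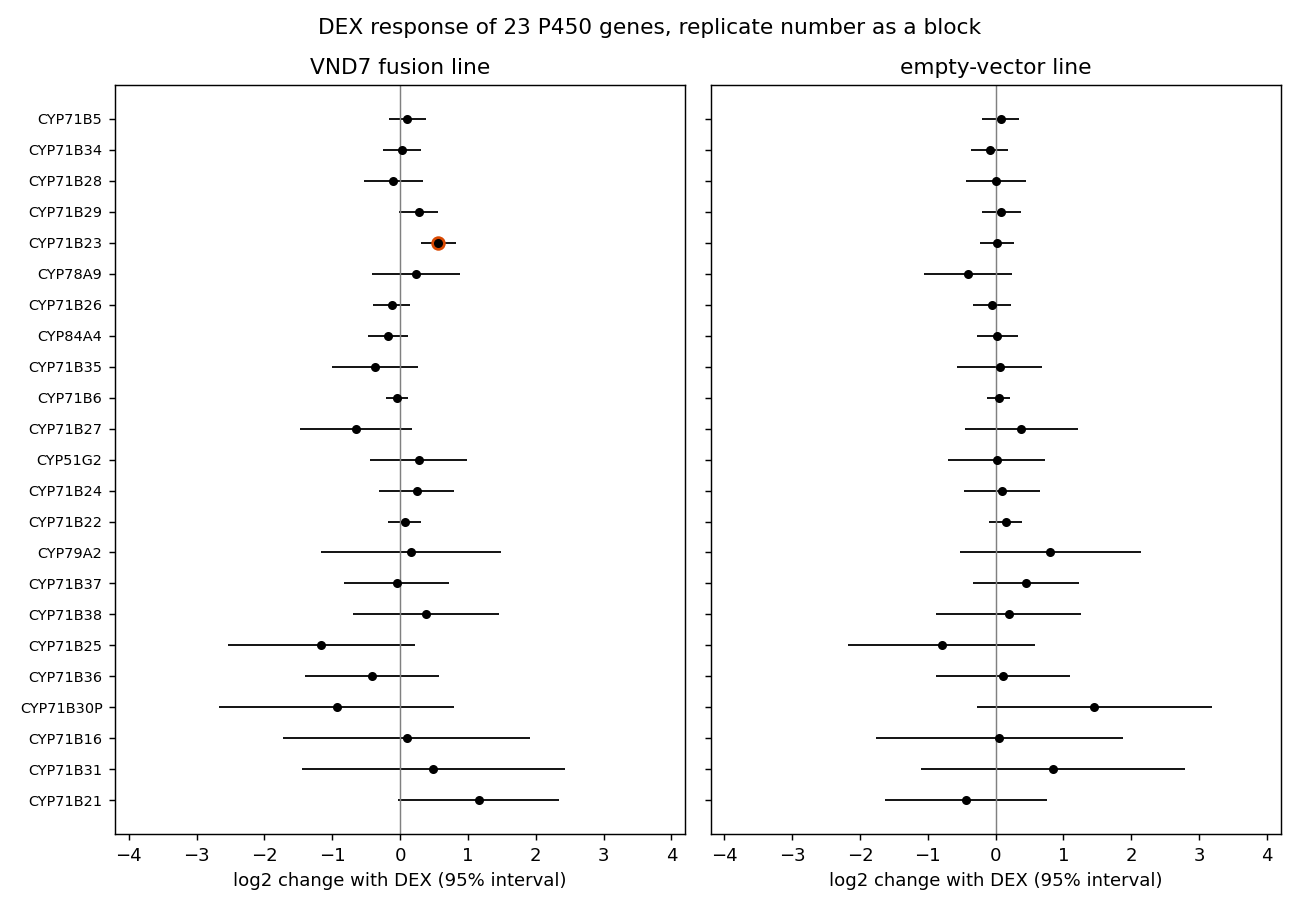
Points are log2 changes with DEX in the VND7 fusion line (left) and the empty-vector line (right) for each of the 23 P450 genes. Bars are 95% intervals, unadjusted, from the fit with the replicate number as a block. The larger orange point marks CYP71B23 in the VND7 line, at 0.57, the only change in either panel that passed an adjusted p under 0.05. Genes are ordered by their SD within groups, from CYP71B5 (0.22) to CYP71B21 (3.36), and the widest intervals belong to dim genes near the bottom.

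CYP71B23 has no settled substrate and lies between CYP71B22 and CYP71B24 in the chromosome 3 run. In the VND7 line with DEX its signals were 754, 854, 1061, 758 and 878 in replicates 1 to 5. Under CHX alone they were 344, 699, 608, 635 and 638. All 5 arrays with DEX were above all 5 without on this scale, and the lowest array, replicate 1 under CHX alone, stood apart from the other 4 of its group. Once each array was divided by its median, the groups overlapped. The change was 0.57 on the log2 scale, a rise of 1.48-fold (95% interval 1.24 to 1.77, with the block). By replicate number the log2 changes were 1.07, 0.25, 0.70, 0.31 and 0.50, so DEX was the higher array in 5 of 5 pairs. Of the 23 members only CYP71B23 was higher in 5 of 5 pairs of the VND7 line, and only CYP71B29 in 4 of 5. Such counts also arose in the empty-vector line, with the dim CYP79A2 at 5 of 5 and 4 members, CYP71B29 among them, at 4 of 5. The share of all probe sets with such counts was not computed.

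In the empty-vector line CYP71B23 had signals of 293, 612, 594, 610 and 419 with DEX and of 332, 649, 510, 533 and 431 without. The log2 change was 0.02, and DEX was the higher array in 2 of 5 pairs. The responses of both lines differed by 0.55 on the log2 scale, which did not pass with the block (limma, adjusted p = 0.236) or without it (adjusted p = 1.00). CYP71B23 is therefore called in one line and not in the other, while the test of the difference between lines was not passed. In the VND7 line the call had an adjusted p of 0.0226 with the block and 1.00 without. With the block it was lost when replicate 1 of the VND7 line with DEX was left out (log2 change 0.45, adjusted p = 0.103). It was also lost without any 1 of 6 other arrays of that line, and when limma's variance trend was left out (adjusted p = 0.0997).

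**Figure D3:**
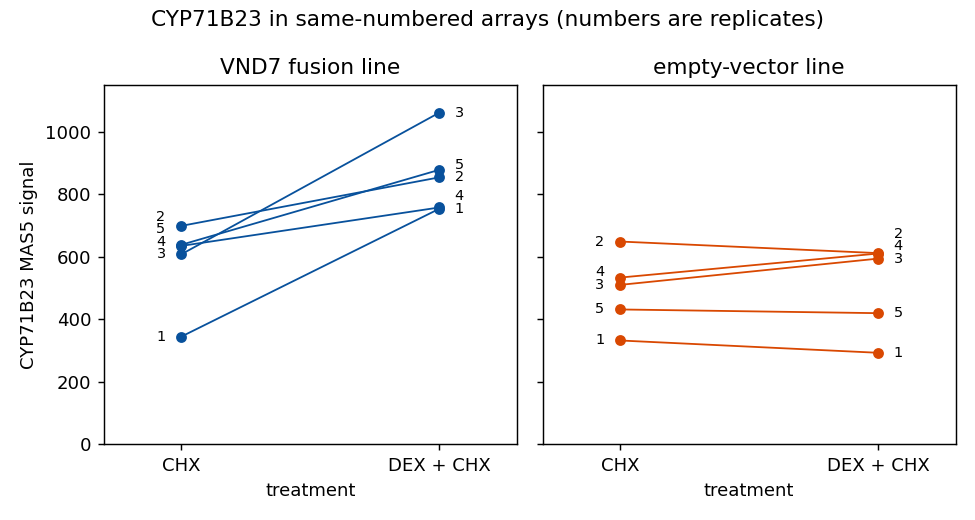
CYP71B23 signals, on a linear axis from 0, are joined between arrays with the same replicate number, written beside each point. In the VND7 fusion line (left) all 5 lines rise from CHX alone to DEX with CHX, with replicate 1 starting at 344. In the empty-vector line (right) 2 rise and 3 fall, between 293 and 649.

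The lines were also compared under each treatment. Under CHX alone 0 of 23 members differed between the lines in the fit of groups alone (background 0.0264%) and 0 with the block (background 0.0923%). Unadjusted p-values under 0.05 numbered 0 and 1 in those fits, against 2.67% and 7.19% of all probe sets. With DEX 0 members passed without the block (background 1.32%) and 1 passed with it (background 3.24%), which was CYP71B23. Its signal was 861 ± 125 in the VND7 line and 506 ± 144 in the empty vector (SD, n = 5 each). The VND7 line was higher in all 5 same-numbered pairs. The difference was 0.81 on the log2 scale, or 1.75-fold, with an adjusted p of 0.000247 with the block and 0.153 without. Unlike the response within the line, this call was kept with the block without each single array and under each of 5 other settings (log2 0.69 to 0.90, adjusted p 0.000101 to 0.00386). Under CHX alone the lines differed by 0.26 in this gene, which did not pass. CYP71B22, the neighbour of CYP71B23, had the only other unadjusted p under 0.05 with DEX (log2 -0.25, adjusted p = 0.390 with the block). Such p-values were reached by 11.7% of all probe sets in that fit.

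More P450 genes passed the test of replicate number than passed for line or treatment. Each number holds 1 array of every group, so a fitted shift between numbers is an average over both lines and both treatments. The moderated F test over the 5 numbers was passed by 11 of 23 members (47.8%), close to the 44.5% of all probe sets that passed it. The median share of a member's within-group variance that lay between numbers was 49.3%, against 51.3% over all probe sets. The P450 genes thus moved with the numbers about as often as the array as a whole. The labels do not say what the numbers stand for, and the cause of these shifts was not tested. In whole seedlings, fewer cells of a type and less RNA per cell cannot be told apart.

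Over all probe sets, arrays numbered 2 and 3 resembled each other, as did arrays numbered 4 and 5. This split was known from earlier results of the same data, so its p-values are no independent evidence for it. Between numbers 4 and 5 and numbers 2 and 3, 10 of 23 members passed (43.5%, background 37.7%). Of these 3 were higher in 4 and 5 (13.0%, background 16.3%) and 7 were lower (30.4%, background 21.3%). Number 1 differed from the others for 5 members (21.7%, background 31.6%), with CYP71B21, CYP71B34 and CYP71B37 higher and CYP71B23 and CYP84A4 lower. When the arrays were scaled by their trimmed mean, the median of all probe sets moved by 0.11 on the log2 scale in the comparison of 4 and 5 with 2 and 3. The share of higher calls among all calls then went from 43.4% to 60.1%, and it was 51.2% under quantile normalization. Under both of those scalings the members gave 3 higher and 5 lower calls, and those lost were CYP71B23 and CYP84A4. Directions below are relative to the array median.

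CYP71B21, of unknown substrate, had the widest range of the members. Its signals were 247 to 360 in the 4 arrays numbered 1, 133 to 199 in number 2 and 72.2 to 132 in number 3. In number 4 they were 1.0 to 21.7 and in number 5 they were 1.2 to 9.9. Thus all 12 arrays of numbers 1 to 3 were above all 8 arrays of numbers 4 and 5, in both lines and with or without DEX. Such a complete separation was seen for 2 of 23 members (8.70%), CYP71B21 and CYP71B6, and for 4.41% of all probe sets. The log2 difference of 4 and 5 from 2 and 3 was -5.45 (limma, adjusted p = 8.66e-09). Its size is not settled, because the low arrays lie at the floor of the scale, and it was -1.69 with a pseudocount at the 30th percentile. The 4 arrays of number 1 were above each of the other 16.

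CYP71B6, the indole-3-acetonitrile enzyme, was a bright transcript and shifted with little scatter. It was 2087 to 2233 in number 2 and 2419 to 2520 in number 3, against 1103 to 1210 in number 4 and 980 to 1190 in number 5. In number 1 it was 1257 to 1627, between those sets. Numbers 4 and 5 were 2.25-fold lower than 2 and 3 (log2 -1.17 ± 0.06, SE, adjusted p = 1.89e-11). Replicate number held 97.2% of its within-group variance, the highest share among the members. With the numbers taken into account, an SD of 0.12 on the log2 scale was left, where it had been 0.60. The 95% interval of its DEX response with the block was then narrow, from -0.21 to 0.12 in the VND7 line.

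CYP71B22, the neighbour of CYP71B21, went the same way. Its signals were 1124 to 1294 in number 2 and 963 to 1369 in number 3, and they were 361 to 481 in number 4 and 392 to 610 in number 5. Number 1 lay between at 535 to 851 and overlapped number 5. The log2 difference of 4 and 5 from 2 and 3 was -1.49 ± 0.09 (SE, adjusted p = 1.48e-10), which is 2.80-fold lower. CYP71B24 (log2 -1.06 ± 0.21, SE) and CYP71B36 (-1.60 ± 0.37) were lower in numbers 4 and 5 as well, from dimmer signals. With the pseudocount those changes shrank to -0.55 and -0.57 and were still called.

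**Figure D4:**
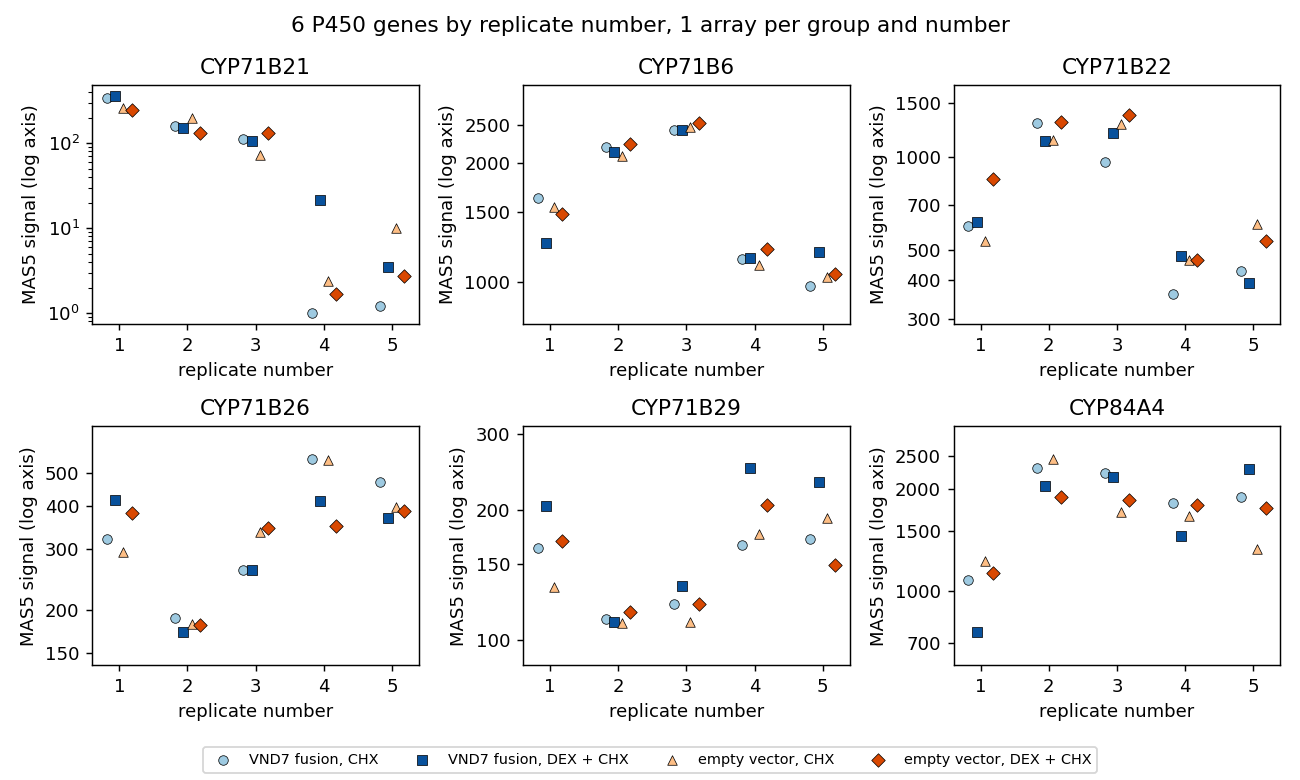
Each panel shows MAS5 signals of a P450 gene on a log axis against replicate number, with 1 point per array and symbols for the 4 groups. CYP71B21 falls from 247 to 360 in number 1 to 21.7 or less in numbers 4 and 5. CYP71B6 and CYP71B22 are high in numbers 2 and 3, CYP71B26 is lowest in number 2, CYP71B29 is low in numbers 2 and 3, and CYP84A4 is lowest in number 1. The 4 symbols of a number mostly lie together.

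The opposite pattern was seen in 3 members. CYP71B26 had signals of 173 to 190 in number 2 and 261 to 347 in number 3. In number 4 it was 350 to 548, in number 5 it was 370 to 471, and in number 1 it was 295 to 418. Numbers 4 and 5 were 1.72-fold higher than 2 and 3 (log2 0.78 ± 0.10, SE, adjusted p = 5.28e-06). CYP71B29 was 109 to 116 and 110.2 to 133 in numbers 2 and 3, and 166 to 249.8 and 149 to 232 in numbers 4 and 5. That is 1.52-fold higher (log2 0.60 ± 0.11, SE, adjusted p = 0.000173). CYP71B37, a dim transcript, was 7.3 to 26.1 in numbers 2 and 3 and 21.9 to 44.0 in numbers 4 and 5 (log2 1.23 ± 0.29, SE, or 0.35 with the pseudocount).

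CYP84A4, of the arabidopyrone pathway, was set apart by number 1. Its signals there were 754, 1077, 1126 and 1222, below each of the other 16 arrays, which ran from 1327 to 2451. Number 1 was 1.89-fold lower than the others (log2 -0.92 ± 0.13, SE, adjusted p = 1.36e-05). CYP71B23 was lower in number 1 too (log2 -0.72 ± 0.11, SE, adjusted p = 3.96e-05). Its array of the VND7 line with DEX was the exception, at 754 against 293 to 344 in the other 3 arrays of that number. CYP71B34 was higher in number 1, at 191 to 215 against 127 to 202 in the rest (log2 0.38 ± 0.12, SE, adjusted p = 0.0176). That difference was lost without replicate 1 of the VND7 line under CHX alone (log2 0.30, adjusted p = 0.120). CYP71B37 was higher in number 1 at 28.7 to 66.4 (log2 0.95 ± 0.33, SE, adjusted p = 0.0336, or log2 0.30 with the pseudocount). Numbers 4 and 5 overlapped that range at 21.9 to 44.0, while numbers 2 and 3 were at 7.3 to 26.1. The CYP71B37 call was lost without that same array (adjusted p = 0.190) or without replicate 1 of the empty-vector line under CHX alone (adjusted p = 0.129).

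Immediate neighbours did not share 1 pattern. In the run CYP71B21, CYP71B22 and CYP71B23, all 3 were lower in numbers 4 and 5, the last of them with a log2 difference of -0.30 that was not called under other scalings. In number 1, however, CYP71B21 was higher, CYP71B23 was lower and CYP71B22 did not pass (log2 -0.26, adjusted p = 0.0652). In the run CYP71B34 to CYP71B37, CYP71B36 was lower in numbers 4 and 5 and CYP71B37 higher, while CYP71B34 and CYP71B35 did not pass there. On chromosome 1, CYP71B29 was higher in 4 and 5, whereas its neighbour CYP71B28 stayed at 70.0 to 174 over all 20 arrays and did not pass the F test (adjusted p = 0.989). The differences between neighbours were not tested themselves.

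The 12 members that did not pass the F test included the 6 dim ones. The others were CYP51G2, CYP71B5, CYP71B28, CYP71B35, CYP71B38 and CYP78A9. CYP71B5 was the steadiest transcript of the members on the log2 scale, at 150.9 to 237.5 over the 20 arrays. CYP71B35 ran from 34.5 to 137, CYP71B38 from 3.7 to 56.1 and CYP51G2 from 14.9 to 83.9. CYP78A9, the fruit and seed growth gene, was 28.6 ± 15.0 and 33.9 ± 16.6 in the VND7 line without and with DEX (SD, n = 5 each). In the empty vector it was 35.4 ± 6.08 and 27.5 ± 8.11 (SD, n = 5 each). Its responses did not pass in either line, and its groups overlapped throughout.

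The roles of P450 genes were covered unevenly by the 23 members. Measured means here that the annotation used gave the gene a probe set of its own. Since 8730 of 22746 probe sets were absent from that annotation, a gene not counted as measured may still be on the array. Of 14 lists of P450 genes by role, 5 held 1 measured member each. Phenylpropanoid and flavonoid synthesis had CYP84A4 (1 of 7 genes), glucosinolate synthesis CYP79A2 (1 of 11), camalexin and related indoles CYP71B6 (1 of 5), sterols CYP51G2 (1 of 8) and the CYP78A growth genes CYP78A9 (1 of 6). The other 9 lists, among them brassinosteroid, gibberellin, jasmonate and cutin, had 0. The non-P450 partners were similarly sparse. ATR3, a diflavin reductase, was the 1 measured gene of 9 listed as electron donors. Whether ATR3 passes electrons to a P450 enzyme was not tested. ATR3 had a log2 change of -0.13 with DEX in the VND7 line and of 0.15 in the empty vector, with 0 calls in any comparison. HCT, the hydroxycinnamoyl transferase of lignin synthesis, was the 1 measured of 14 phenylpropanoid genes. UGT74B1, a glucosyltransferase of glucosinolate synthesis, was the 1 measured of 10. Neither passed in a DEX or line comparison.

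HCT and UGT74B1 did shift with replicate number. HCT was 1181 to 1600 in numbers 2 and 3 and 649 to 1071 in numbers 4 and 5 (log2 -0.82 ± 0.09, SE, adjusted p = 8.55e-07). UGT74B1 was 1808 to 2405 in numbers 2 and 3 and 1034 to 1632 in numbers 4 and 5 (log2 -0.76 ± 0.08, SE, adjusted p = 2.85e-07). Both were lower in numbers 4 and 5 than in 2 and 3, with no overlap, as CYP71B6 and CYP71B22 were. Calls of this direction were common, at 21.3% of all probe sets, and the share of all probe sets without overlap here was not computed.

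Of 4 tissue markers measured, 2 passed between number 1 and the others, both as higher in number 1. Over all probe sets 31.6% passed in either direction, and 3107 of 22746 passed as higher. Of 5 green tissue markers 2 were measured, LHCB4.1, a light-harvesting protein, and RCA, which activates Rubisco. Their summed signal was 38676 to 43087 in number 1 and 26247 to 40783 in the other numbers, and RCA was higher in number 1 (log2 0.28, adjusted p = 0.0338). Of 6 root markers the 2 measured were the root-hair expansins EXPA7 and EXPA18. Their summed signal was 124 to 159 in number 1 and 40.3 to 127 elsewhere, and EXPA18 was higher in number 1 (log2 0.65, adjusted p = 0.0150). Between numbers 4 and 5 and numbers 2 and 3, none of these 4 markers passed. Of 5 xylem and 2 epidermis markers 0 had a probe set of their own in the annotation used, so those tissues were not checked. The part of tissue make-up in the shifts of the P450 genes was not tested.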

How the data were processed

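Per the submitters' processing notes, the authors used MAS5 (version not given) to obtain signals. The deposited values are on a natural log scale with the array's median signal at 0, as worked out from the values: after exponentiation, 100% of the values checked per array (13796 to 14327, under 3000 steps) were whole multiples of a step of 0.1, within 0.02 of a step. Printed signals were recovered in this way, and tests used log2 of the deposited values. Probe sets were named through GEO's platform annotation with RefSeq symbols (TAIR10.1, for names and neighbours only). Of 22746 probe sets, 13436 had 1 matched gene and 503 had several, while 77 had 1 gene without a match and 8730 were absent from the annotation. Coordinates are left out because the probe sets' genome build is not given in the sources used.

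The tests used limma 3.58.1 (R 4.3.3), fitting 4 group means over 20 arrays with lmFit and a trended eBayes, with Benjamini-Hochberg adjustment over all probe sets. Replicate-number tests came from the fit of group and number. The script was tested on simulated data. Replicate numbers were taken to pair arrays, since deviations from group means correlated at over 0.1 in each of 30 same-numbered pairs. Their r was 0.558 to 0.835, over 11373 probe sets, which are not independent replicates. The 24 pairs of number 2 with 3 or 4 with 5 also exceeded 0.1 (r = 0.514 to 0.779). This threshold therefore cannot tell a shared number from a shared set of numbers. The members, gene lists and the split of replicate numbers were chosen with earlier results of these data known. Named genes were the members called in a group comparison, the 6 with the smallest p per direction and comparison, the 8 brightest, those of a role list, and the steadiest and most variable. The number of arrays limits the precision. Alternatives were the block, other scalings, a pseudocount, a filter on dim probe sets, no variance trend and leaving out each array.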

Additional observations from a re-analysis of the deposited data

Results flagged for a closer look

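In 7 of the 92 groups of 5 arrays looked at, 1 array lay far from the other 4 in the signal of a P450 gene (its gap to the nearest array exceeded 0.71 of the group's range on the log2 scale). For independent, normally spread values about 1 in 20 groups would pass this cut. The groups here share arrays and replicate numbers, so that rate is only a rough guide, and none was computed for these data. CYP71B23 was 344.2 in replicate 1 of the VND7 line under CHX alone, with the others at 607.6 to 698.8. CYP84A4 was 1126.1 in replicate 1 of the empty-vector line with DEX, with the others at 1761.3 to 1890.7. CYP71B26 was 180.8 in replicate 2 of that group, where the others were 346.5 to 388.7. In each of these 3 genes that replicate number was the lowest in all 4 groups. CYP71B35 was 60.3 in replicate 4 of the VND7 line under CHX alone (others 87 to 114.1). The remaining 3 arrays concern dim signals. CYP71B25 was 2.8 in replicate 3 of the empty-vector line with DEX (others 12.9 to 20), and CYP71B38 was 3.7 in replicate 4 of the empty-vector line under CHX alone (others 27.7 to 46). CYP79A2 was 7.6 in replicate 5 of the VND7 line with DEX (others 1.3 to 2).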

How the results depend on the processing

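Fitting the replicate number as a block raised the number of P450 genes called from 0 to 1 in the VND7 line's DEX response and from 0 to 1 between the lines with DEX. That gene was CYP71B23 in both, and the block changed no other call of a group comparison. Without the dimmest 40% of probe sets, which left 9 members to test, the calls were 7 instead of 11 for replicate number and 6 instead of 10 for numbers 4 and 5 against 2 and 3. The share of tested members called was then 77.8% and 66.7%, beside 68.8% and 56.9% of all probe sets tested. With each array left out in turn, the 5 group comparisons gave 0 to 0 calls without the block. Replicate number gave 10 to 13, numbers 4 and 5 against 2 and 3 gave 9 to 11, and number 1 against the others gave 4 to 6. The F test call of CYP71B34 was lost without any 1 of 6 arrays (adjusted p up to 0.106). No called value changed sign under any setting run. Combining the block with the other settings for CYP71B23 was chosen after seeing the data. Averaging the probe sets of a gene was planned and gave no values of its own, since each member had 1. Signals near the floor limit what can be said of the 6 dim members.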

Other observations

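A probe set shared by CYP71B19 and CYP71B20 was not counted among the members, because it names no single gene. Its signal was 404 ± 87.8 (SD over 20 arrays), from 284.8 to 559.8. By replicate number it was 413.5 to 559.8 in number 1, 302.1 to 379.8 in number 2, 369.5 to 480.3 in number 3, 322 to 527.9 in number 4 and 284.8 to 419.9 in number 5, so that number 1 overlapped numbers 3, 4 and 5. With DEX it was 412 ± 86.9 in the VND7 line and 432 ± 91.7 in the empty vector, against 376 ± 107 and 397 ± 83.7 under CHX alone (SD, n = 5 each), so that the groups overlapped.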
